A study of Mus musculus with 24 samples.

Results

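MicroRNAs were compared in the cerebral cortex of APP/PS1 mice at 3 months of age, set against APP/PS1 mice at 1 month of age, with 3 mice at each age. These 6 libraries are 6 of the 24 in the study, chosen by genotype and age alone, and all 1927 miRNA names of the count table were considered. The study sequenced small RNA from APP/PS1 and wild-type (WT) mice at 1, 3, 6 and 9 months, with 3 mice in each of the 8 groups, and all mice were labelled as strain C57BL/6. APP/PS1 mice carry mutant transgenes of the amyloid precursor protein and of presenilin 1 and serve as a model of Alzheimer's disease. The labels do not name the transgenic line or the promoter of the transgenes. The design text counts 2 females and 1 male in each group of 3 but does not assign a sex to any library, and no sex term was fitted. The tissue label reads brain and the title of the series names the cerebral cortex.

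MicroRNAs (miRNAs) are short RNAs cut from hairpin precursors, and the bases near the 5′ end, the seed, choose the messenger RNAs that they repress. One hairpin can give a 5p and a 3p product, its 2 arms, which have different sequences and different targets. In the mouse brain the miR-29 family is known for rising levels as neurons mature, and its known targets include messenger RNAs of collagens and of DNA methyltransferases. The imprinted Dlk1-Dio3 region of chromosome 12 holds one of the largest groups of miRNA genes in mammals, which are expressed from the maternal chromosome, mainly in brain and in the embryo.

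The mature sequences of the 3 members of the miR-29 family are shown first because they share one seed, written here in capitals (bases 2 to 8). The 4 miRNAs of the Dlk1-Dio3 region that fell follow, and the last line is miR-376a-3p, whose values had opposite signs in the 2 genotypes. Sequences were taken from RefSeq (GRCm38.p6) and run 5′ to 3′.
miR-29b-3p: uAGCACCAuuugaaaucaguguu
miR-29c-3p: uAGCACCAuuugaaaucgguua
miR-29a-3p: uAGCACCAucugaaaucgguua
miR-412-5p: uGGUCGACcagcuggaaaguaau
miR-1197-3p: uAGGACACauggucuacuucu
miR-409-5p: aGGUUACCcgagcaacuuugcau
miR-433-5p: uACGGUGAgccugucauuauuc
miR-376a-3p: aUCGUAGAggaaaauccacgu
Counted from 1 at the 5′ end, miR-29a-3p differs from miR-29c-3p by U10C, and miR-29b-3p differs from miR-29c-3p over their shared length by G18A, U21G and A22U. Among tested miRNAs with a RefSeq sequence, none outside the miR-29 family had the seed of these 3, and each of the other 5 seeds belonged to 1 tested miRNA. RefSeq sequences were found for 358 of the 424 tested known names and for 6 of the 8 that passed the test. miR-29b-3p has 2 precursors, Mir29b-2 at chr1:195037040-195037120 (plus strand) and Mir29b-1 at chr6:31063023-31063093 (minus strand), and its counts cannot be divided between them. Mir29b-2 lies 426 bases from Mir29c in an exon of the noncoding gene A330023F24Rik, opposite the protein-coding gene Cd46, and Mir29b-1 lies 275 bases from Mir29a in an exon of the lincRNA Gm27019.

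The 6 libraries held between 3898629 and 6829622 counts each. The neuronal miR-124-3p had the highest counts, at 203810 ± 18760 CPM at 3 months and 172803 ± 22006 CPM at 1 month (SD, n = 3 each). CPM are counts scaled to a common effective library size. Of the 1927 names, 994 had 0 counts in all 6 libraries, and 433 had enough counts over the series to be tested. The 2 ages did not separate on the first principal component, which held 41.5% of the variance: the first 1-month library lay at 1.06 and the second 3-month library at 0.14. Markers of epithelial and sensory cells were near 0, with summed levels of 0.188 to 0.748 CPM at 3 months and 0 to 0.298 CPM at 1 month. P-values weigh a difference against the spread between mice within groups, estimated over all 24 libraries. The difference of a bulk level cannot tell fewer cells of a type apart from less miRNA per cell.

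Of 433 tested miRNAs, 8 differed between 3 and 1 month in APP/PS1 cortex in edgeR's quasi-likelihood test at a Benjamini-Hochberg adjusted p under 0.05, which is 1.85%. Higher at 3 months were 2 (0.462%), miR-29b-3p and miR-29c-3p. Lower were 6 (1.39%), miR-412-5p, miR-1197-3p, miR-409-5p and miR-433-5p of the Dlk1-Dio3 region and the pair miR-486a-3p and miR-486b-3p, which have identical counts and are 1 measurement. Before adjustment, 60 miRNAs had a p under 0.05, 29 of them higher and 31 lower. The libraries of the 2 ages did not overlap for 100 of the 433 miRNAs (23.1%), 46 higher and 54 lower at 3 months. The median log2 fold change over all 433 was -0.03, with 202 above 0 and 231 below 0, and the median of its absolute size was 0.19 against a median standard error (SE) of 0.22. Without the third 1-month library or without the first 3-month library 4 miRNAs passed, and with library totals alone as the scaling 14 did, 1 higher and 13 lower, with a median log2 fold change of -0.14 over all tested miRNAs. Among the 8, miR-29b-3p, miR-412-5p and miR-1197-3p passed in every alternative tried, and with upper-quartile scaling or with no filter on low counts they were the only ones of the 8 to pass.

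miR-29b-3p had the most counts of the family and rose at 3 months. Its level was 1923, 2224 and 2092 CPM at 3 months, against 1202, 1246 and 1263 CPM at 1 month. The lowest 3-month library lay above the highest 1-month library, and the fold change was 0.75 on the log2 scale (SE of 0.10, edgeR adjusted p = 9.16e-05). miR-29c-3p had 1319, 1259 and 1342 CPM at 3 months, against 1059, 994 and 950 CPM at 1 month. These groups did not overlap either, and the log2 fold change was 0.38 (SE of 0.09, edgeR adjusted p = 0.0197). The adjusted p of miR-29c-3p was above 0.05 without the third 1-month, the first 3-month or the third 3-month library, up to 0.0915, and also with library totals alone and in the fit of the 6 libraries alone.

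The third member, miR-29a-3p, did not pass the test, but did in 4 of the 10 alternatives that kept all 3 mice per age: relative log expression scaling, a stricter filter, DESeq2 and identical names collapsed. It had 50.3, 50.6 and 58.2 CPM at 3 months, against 41.6, 43.2 and 36.1 CPM at 1 month, with no overlap. Its log2 fold change was 0.40 (SE of 0.11, edgeR adjusted p = 0.0589), of about the size of that of miR-29c-3p. The other arms of the same hairpins had smaller differences: miR-29c-5p had a log2 fold change of 0.25 (edgeR adjusted p = 0.316) and miR-29b-2-5p one of 0.23 (edgeR adjusted p = 0.498). All 5 tested names of the family were above 0 under each of the 4 scalings, with a median log2 fold change of 0.38, beside -0.03 over all tested miRNAs, and 2 of the 5 passed. The summed level of the family was 3480 to 3692 CPM at 3 months and 2387 to 2457 CPM at 1 month.

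**Figure D1:**
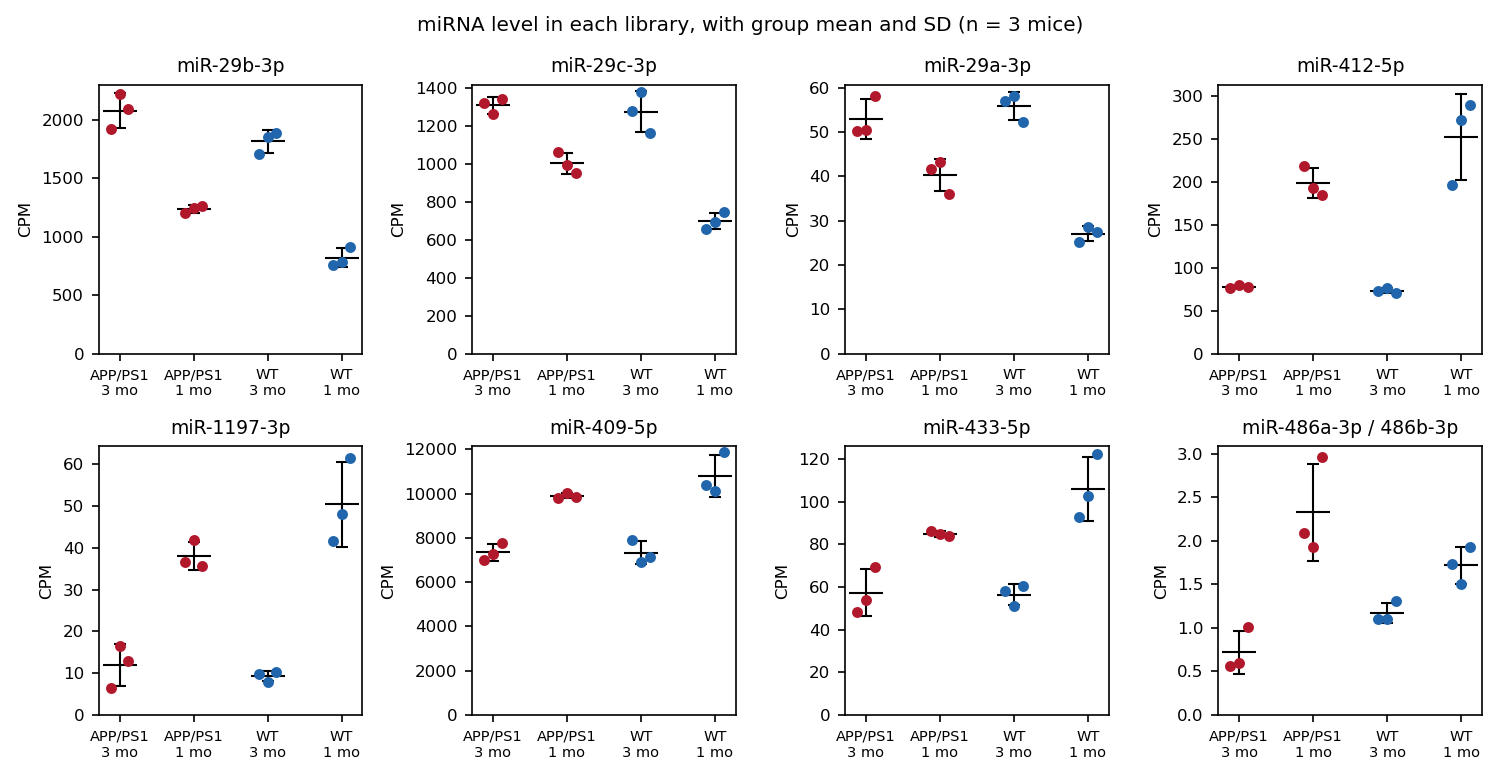
Level of 8 miRNAs in CPM (y axis, from 0) in each library of APP/PS1 mice (red) and WT mice (blue) at 3 and 1 month; points are mice and bars the group mean and SD (n = 3). In APP/PS1 mice the 3-month points of miR-29b-3p (1923 to 2224 CPM) lie above the 1-month points (1202 to 1263 CPM), and those of miR-412-5p (76.2 to 79.3 CPM) lie below the 1-month points (184 to 218 CPM).

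Among the miRNAs of the Dlk1-Dio3 region, miR-412-5p had the smallest p. It had 76.2, 79.3 and 77.0 CPM at 3 months, against 218, 193 and 184 CPM at 1 month. The libraries at 3 months lay close together and below all of those at 1 month, and the level fell by 1.36 on the log2 scale (SE of 0.19, edgeR adjusted p = 9.16e-05). Its hairpin Mir412 lies at chr12:109743289-109743368 (plus strand) in an exon of the lincRNA Mirg. In the hairpin the mature 5p arm is written in capitals, at positions 15 to 37 of 80.
Mir412: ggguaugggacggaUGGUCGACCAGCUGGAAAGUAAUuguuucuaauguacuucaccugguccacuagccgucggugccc
The other arm, miR-412-3p, had 11.1, 17.5 and 12.1 CPM at 3 months and 22.4, 21.5 and 18.7 CPM at 1 month, with a log2 fold change of -0.61 (SE of 0.20, edgeR adjusted p = 0.0958).

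miR-1197-3p had the lowest log2 fold change of the region. It had 6.57, 16.6 and 12.9 CPM at 3 months, against 36.7, 42.0 and 35.6 CPM at 1 month, from 35, 111 and 64 counts at 3 months and 246, 174 and 204 at 1 month. The ages did not overlap, and the 3-month libraries were spread more widely for their level than the 1-month ones. The level fell by 1.65 on the log2 scale (SE of 0.29, edgeR adjusted p = 0.00154). Mir1197 lies at chr12:109712317-109712436 (plus strand), with no other annotated gene over it in the annotation used. The 3p arm is in capitals, at positions 80 to 100 of 120.
Mir1197: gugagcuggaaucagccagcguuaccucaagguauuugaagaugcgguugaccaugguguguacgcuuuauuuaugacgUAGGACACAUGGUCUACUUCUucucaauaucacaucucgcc

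Both other calls of the region were 5p arms. miR-409-5p, from the hairpin 52 bases before Mir412, had 7017, 7282 and 7767 CPM at 3 months, against 9816, 10038 and 9838 CPM at 1 month. The groups were well apart, and the level fell by 0.43 on the log2 scale (SE of 0.10, edgeR adjusted p = 0.0197). Its other arm, miR-409-3p, had a log2 fold change of 0.01 (SE of 0.14, edgeR adjusted p = 0.966), with 625, 892 and 736 CPM at 3 months overlapping 653, 761 and 823 CPM at 1 month. The sign of this value turned with library totals alone, with no filter on low counts, with identical names collapsed, and without the first 1-month or the second 3-month library.

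miR-433-5p, whose hairpin Mir433 lies opposite an exon of Rtl1, a paternally expressed gene, had 48.4, 54.0 and 69.5 CPM at 3 months, against 86.4, 84.7 and 83.8 CPM at 1 month. All 3-month libraries were lower, with the third nearest to the 1-month ones. The level fell by 0.57 on the log2 scale (SE of 0.13, edgeR adjusted p = 0.0197). Its other arm, miR-433-3p, had a log2 fold change of -0.15 (SE of 0.20, edgeR adjusted p = 0.813). The adjusted p of miR-433-5p was above 0.05 without the third 1-month, the first 3-month or the second 3-month library, up to 0.0911, and also in the fits of the 12 or 6 libraries alone, and that of miR-409-5p was 0.0562 without the first 3-month library.

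Over the whole region 91 of 112 listed names were tested, 4 of them fell and 0 rose (edgeR), beside 1.39% lower over all 433, and 2 lower and 2 higher of the 342 tested names outside the region. Before adjustment 16 of the 91 were lower and 3 higher at a p under 0.05, beside 31 lower and 29 higher of all 433, and DESeq2 called the same 4 lower and 1 higher, miR-376a-3p. The median log2 fold change was -0.11, beside 0.01 over the 342 tested names outside the region, and the values ran from -1.65 to 0.85. Of the 91, 64 were below 0 and 27 above, and outside the region 167 were below 0 and 175 above. The median of the region was below 0 under all 4 scalings, from -0.23 with library totals alone to -0.10. With 1 library left out it ran from -0.175 without the first 1-month library to -0.07 without the third. Split by position, the 25 tested names upstream of miR-379 had 1 call and a median of -0.08, and the 66 from miR-379 to miR-410 had 3 calls and a median of -0.12. Without the third 1-month library the median of the 66 was -0.06. That of the 25 was -0.14 without the first 1-month library and -0.13 without the second 3-month library.

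Positions in RefSeq were found for 88 of the 91, from 49 precursors over 184.268 kb, chr12:109563692-109747960. The calls lay in 3 places: miR-433-5p near the upstream end, miR-1197-3p early in the miR-379 to miR-410 stretch, and miR-409-5p and miR-412-5p side by side near its end. Both arms were tested for 40 hairpins of the region. In 28 the arms had the same sign, 21 of them below 0, beside 82 of 123 hairpins with the same sign over the whole table, 46 of them below 0. Both arms passed in 0 of the 123 hairpins (edgeR).

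**Figure D2:**
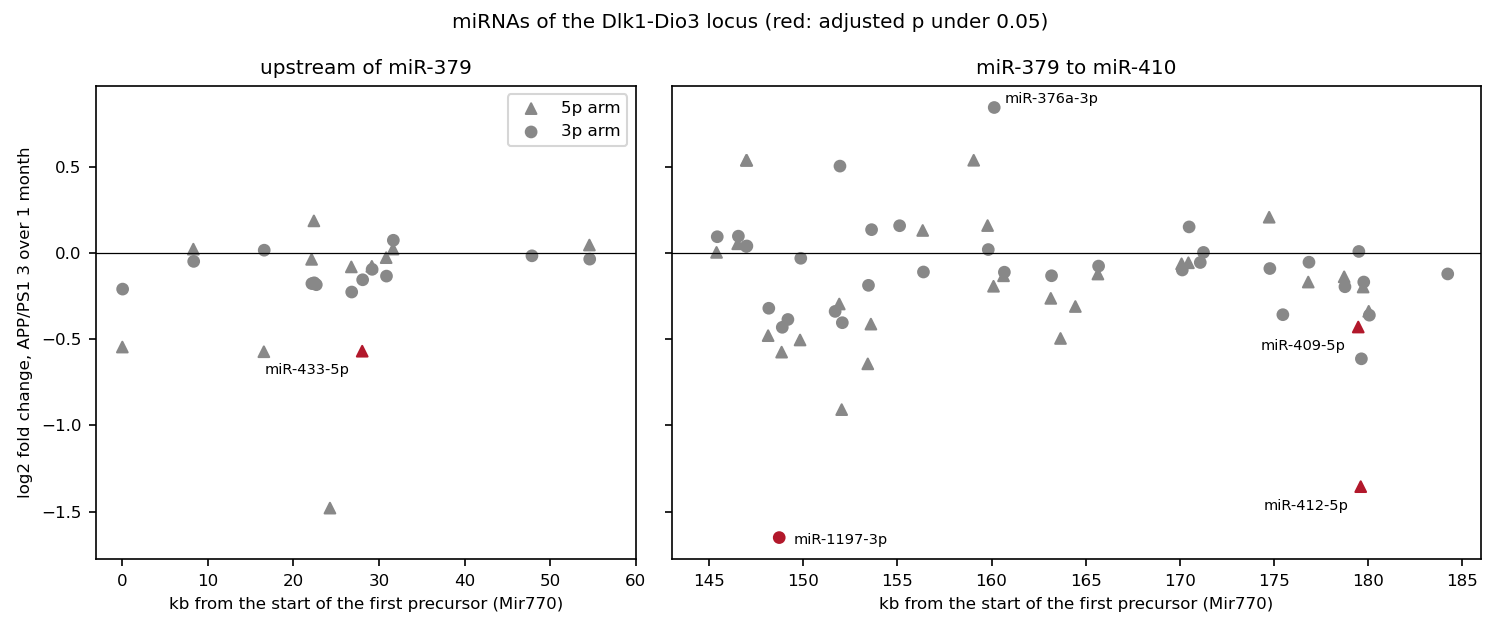
Log2 fold change of APP/PS1 3 months over 1 month (y axis) for 88 tested miRNAs of the Dlk1-Dio3 region by distance in kb from the start of the first precursor (x axis); triangles are 5p arms, circles 3p arms, and red marks an adjusted p under 0.05. The called miRNAs miR-1197-3p (-1.65) and miR-412-5p (-1.36) are among the lowest points, and miR-376a-3p (0.85) is the highest.

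miR-486a-3p and miR-486b-3p, arms of a hairpin pair known for its expression in red blood cells, were rare. They had 3, 4 and 5 counts at 3 months (0.563, 0.599 and 1.01 CPM), against 14, 8 and 17 counts at 1 month (2.09, 1.93 and 2.97 CPM). The ages did not overlap, and the level fell by 1.68 on the log2 scale (SE of 0.41, edgeR adjusted p = 0.0276). A fold change from so few counts depends on the prior count of the fit. The 5p arms, with 334, 273 and 257 CPM at 3 months and 379, 288 and 291 CPM at 1 month, overlapped between ages, and their log2 fold change was -0.15 (edgeR adjusted p = 0.793). The call was lost with DESeq2, in the fit of the 6 libraries alone, and without the third 1-month, the first 3-month or the second 3-month library, where the adjusted p was up to 0.120.

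All 7 names of the erythrocyte list, which are 5 distinct measurements, were below 0 under each scaling, with a median log2 fold change of -0.41, and the miR-486 3p pair were its only calls. The summed level of the list was 1740, 1217 and 1138 CPM at 3 months and 2123, 1450 and 1344 CPM at 1 month, which overlapped. miR-144-3p, a red blood cell miRNA, had a log2 fold change of -0.41 (edgeR adjusted p = 0.635) and miR-451a one of -0.23 (edgeR adjusted p = 0.813). The median of the list depended on single libraries: it was -0.14 without the first 1-month library, where 6 of 7 were below 0, -0.74 without the first 3-month library and -0.27 without the third 3-month library. The part of blood content in the result for the miR-486 3p pair was not tested.

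Outside the miR-29, Dlk1-Dio3 and erythrocyte lists, 136 names of the other lists were tested and 0 passed in edgeR's test. Before adjustment 13 of the 136 were higher and 5 lower at a p under 0.05, beside 29 higher and 31 lower of all 433. DESeq2 called 0 of the 136. Among lists tied to neurons, 19 neuron-enriched names had 16 above 0 and 3 below with a median log2 fold change of 0.16, and 9 activity-regulated names had 7 above 0 with a median of 0.16. With library totals alone these became 10 of 19 and 6 of 9 above 0, with medians of 0.06 and 0.04. The median of the activity-regulated list was 0.09 without the third 1-month library. Without the third 1-month or without the second 3-month library, 13 of the 19 neuron-enriched names were above 0. The summed level of the neuron-enriched list overlapped between ages, with 304277 to 339765 CPM at 3 months and 258625 to 323360 CPM at 1 month. The one tested marker of oligodendrocytes, the glia that form myelin, was miR-338-3p, with 3.57, 3.44 and 3.63 CPM at 3 months and 1.34, 2.90 and 2.27 CPM at 1 month. Its ages did not overlap, and its log2 fold change was 0.75 (SE of 0.31, edgeR adjusted p = 0.268), or 0.43 without the first 1-month library. The summed level of all 9 names of the oligodendrocyte list was 5.44, 4.34 and 6.04 CPM at 3 months. At 1 month it was 2.54, 4.59 and 3.32 CPM, so the sums of the ages overlapped.

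The 6 tested members of the striated muscle and liver list were all above 0 under each scaling, with a median log2 fold change of 0.49. Without the first 1-month library 5 of these 6 were above 0. The summed level of the list was 686, 518 and 501 CPM at 3 months, against 376, 338 and 308 CPM at 1 month, and the ages did not overlap. In WT mice over the same interval the list had a median of 0.45 and 1 call, higher at 3 months. Its WT sums overlapped, with 386 to 667 CPM at 3 months and 290 to 417 CPM at 1 month. The members named here were chosen after their values were seen. The muscle miRNA miR-1a-3p had a log2 fold change of 0.87 (edgeR adjusted p = 0.120) and miR-133a-3p, also known from muscle, one of 0.57 (edgeR adjusted p = 0.0958). The part of such markers in the other differences was not tested.

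Immune and microglial names had 4 of 9 above 0 and a median of -0.03, the same as that of all tested miRNAs, with a summed level of 6081 to 6408 CPM at 3 months and 5287 to 6104 CPM at 1 month. The endothelium, smooth muscle and fibroblast list had 2 of 9 above 0 and a median of -0.23, the hypothalamus and pituitary list 0 of 4 and -0.36, the choroid plexus list 2 of 4 and -0.01, and the Hox list 1 of 2 and -0.20. These medians moved with single libraries. Over the 6 fits that each left out 1 library, the median ran from -0.17 to 0.06 for the immune list and from -0.27 to 0.08 for the choroid plexus list, so both changed sign. It ran from -0.40 (without the first 3-month library) to -0.18 for the endothelium list, from -0.67 (without the second 3-month library) to -0.14 (without the third 1-month library) for the hypothalamus list, and from -0.46 to -0.04 for the Hox list. The choroid plexus and ependyma markers had 236 to 304 CPM in sum at 3 months and 231 to 286 CPM at 1 month.

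Among families and clusters, the Sfmbt2 intron cluster, a large group of rodent miRNAs inside an imprinted gene, had 24 of 26 tested names below 0 and a median of -0.45. These 26 names hold 17 distinct measurements, and the median was -0.23 without the third 1-month library and -0.67 without the first. The summed level of the Sfmbt2 cluster overlapped between ages, with 335 to 415 CPM at 3 months and 405 to 580 CPM at 1 month. The miR-17-92 and paralogous clusters, known for their part in cell proliferation, had 8 of 8 below 0 and a median of -0.13, with values down to -1.06. Without the first 1-month library 6 of these 8 were below 0. The summed level of these clusters overlapped between ages, with 602 to 662 CPM at 3 months and 607 to 720 CPM at 1 month. The let-7 family, whose mature forms accumulate as cells differentiate, had 12 of 19 above 0 and a median of 0.12, and the miR-30 family 8 of 8 and 0.21. With library totals alone let-7 had 10 of 19 above 0 with a median of 0.00, and miR-30 had 6 of 8 with a median of 0.10. The miR-15 and miR-16 family had 6 of 8 above 0 and a median of 0.30 (0.19 with library totals alone), the miR-181 family 4 of 5 and 0.08 (with library totals alone 1 of 5 and -0.02), and the miR-130 and miR-301 family 0 of 2 and -0.19. With 1 library left out, the median of the miR-15 and miR-16 family ran from 0.13 (without the first 3-month library) to 0.49 (without the first 1-month library). In the same fits that of let-7 ran from 0.03 (without the first 1-month library) to 0.14, and that of miR-181 from 0.03 (without the third 1-month library) to 0.17 (without the first). That of miR-17-92 was -0.20 without the third 1-month library, -0.19 without the third 3-month library and -0.11 without the second 3-month library.

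**Figure D3:**
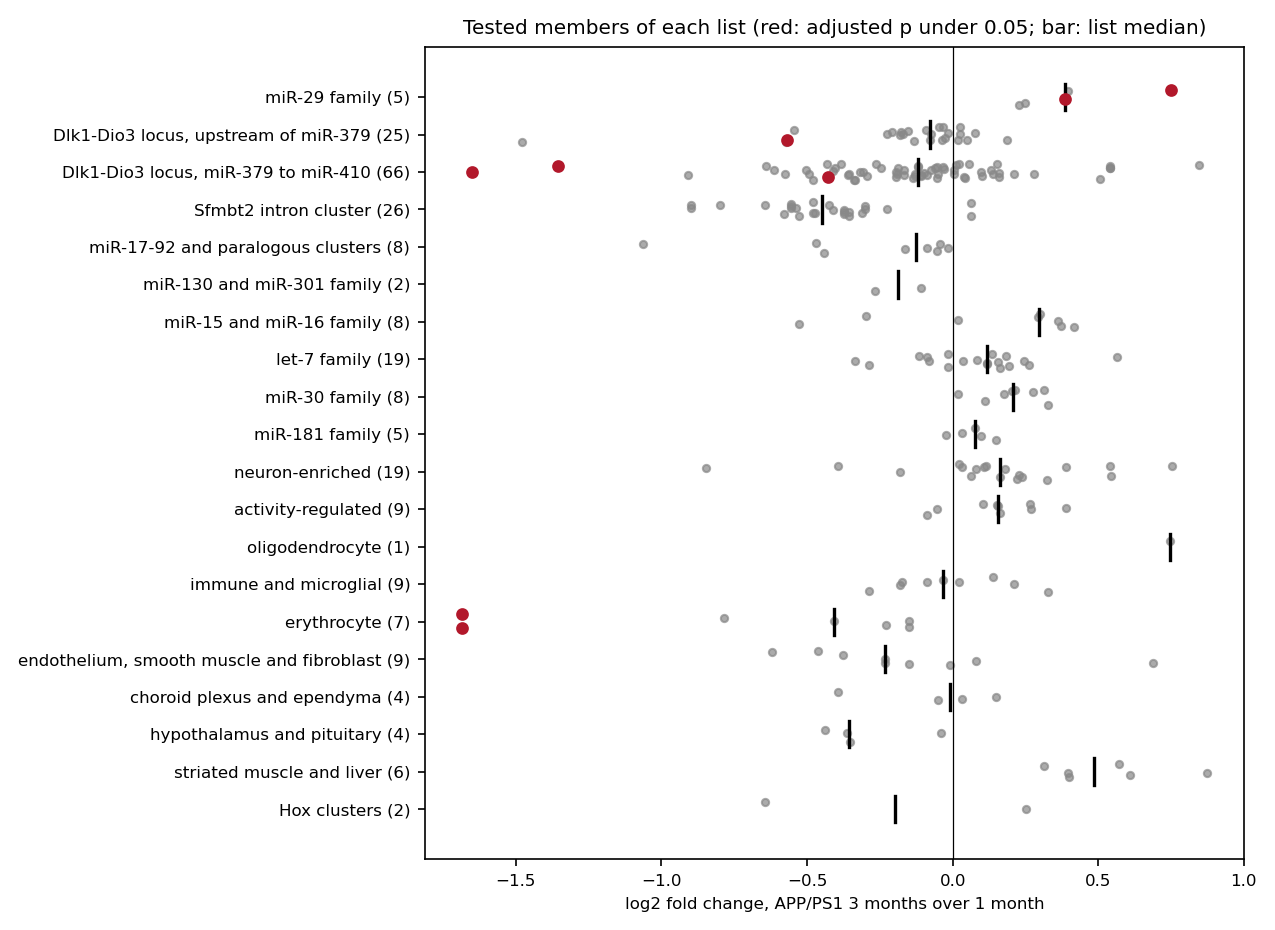
Log2 fold change of APP/PS1 3 months over 1 month (x axis) for the tested members of 20 lists (y axis, number of members in brackets); red points have an adjusted p under 0.05 and the bar is the list median. The red points lie in the miR-29 family (median 0.38), both Dlk1-Dio3 lists (medians -0.08 and -0.12) and the erythrocyte list (median -0.41).

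The 5 miRNAs with the most counts over the 6 libraries did not pass the test. miR-124-3p had a log2 fold change of 0.24 (SE of 0.10, edgeR adjusted p = 0.268), with 203162, 185382 and 222886 CPM at 3 months overlapping 195975, 170248 and 152186 CPM at 1 month. miR-26a-5p had 0.11, miR-99a-5p 0.09, miR-125b-5p 0.05 and miR-9-5p 0.03, with adjusted p-values between 0.677 and 0.933 (edgeR). The signs of the last 3 turned with library totals alone as the scaling.

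The same interval in WT mice, 3 months against 1 month, gave 42 calls of 433 (9.7%) in edgeR's quasi-likelihood test, 11 higher and 31 lower. The median absolute log2 fold change was 0.19 in APP/PS1 and 0.27 in WT, at a median SE of 0.22 in both. Of the 8 APP/PS1 calls, 6 were also called in WT and had the same direction there, which is 75% of the APP/PS1 calls and 14.3% of the WT calls. The other 2 were the miR-486 3p pair, with a WT log2 fold change of -0.55 (edgeR adjusted p = 0.474). The WT ages did not overlap for this pair either. Its log2 fold change in APP/PS1 minus that in WT was -1.13, which did not pass (edgeR adjusted p = 0.998). Of the 42 WT calls, 40 had the same sign in APP/PS1. Of the 91 Dlk1-Dio3 names, 25 fell and 2 rose in WT, where their median log2 fold change was -0.26.

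The difference between genotypes itself was tested as the log2 fold change in APP/PS1 minus that in WT, and 0 of 433 passed (0%). Before adjustment 21 miRNAs had a p under 0.05, 11 above 0 and 10 below, and DESeq2 called 3. The 3 with the smallest p were miR-376a-3p, miR-29a-3p and miR-29c-3p, and these were also the 3 that DESeq2 called. Under 5 of the alternatives tried, 1 to 3 miRNAs passed.

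For the miR-29 family the WT fold changes were numerically larger. WT libraries had 1708, 1856 and 1888 CPM of miR-29b-3p at 3 months, against 762.3, 784 and 913 CPM at 1 month. The log2 fold change was 0.75 in APP/PS1 and 1.15 in WT, a difference of -0.40 (95% interval -0.69 to -0.10, edgeR adjusted p = 0.455). The 1-month libraries of the genotypes did not overlap, with 1202 to 1263 CPM in APP/PS1 and 762.3 to 913 CPM in WT. At 3 months they also did not overlap, with 1923 to 2224 CPM in APP/PS1 and 1708 to 1888 CPM in WT, and the gap was smaller.

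miR-29c-3p had 1276, 1379 and 1164 CPM in WT at 3 months, against 657, 694 and 744 CPM in WT at 1 month. Its log2 fold change was 0.38 in APP/PS1 and 0.87 in WT, and the difference was -0.48 (95% interval -0.74 to -0.22, edgeR adjusted p = 0.121). miR-29a-3p had 57.1, 58.3 and 52.3 CPM in WT at 3 months, against 25.2, 28.5 and 27.3 CPM in WT at 1 month. Its log2 fold change was 0.40 in APP/PS1 and 1.05 in WT, a difference of -0.65 (95% interval -0.97 to -0.33, edgeR adjusted p = 0.0831). For both, the genotypes overlapped at 3 months and were apart at 1 month, where the APP/PS1 libraries were higher.

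miR-376a-3p, a Dlk1-Dio3 miRNA, had values of opposite sign in the genotypes. It had 29.8, 41.9 and 37.1 CPM in APP/PS1 at 3 months, against 16.1, 20.3 and 24.3 CPM in APP/PS1 at 1 month. In WT it had 18.5, 17.3 and 19.0 CPM at 3 months, against 30.4, 25.5 and 33.3 CPM at 1 month. Neither pair of ages overlapped: the 3-month libraries were the higher ones in APP/PS1 and the lower ones in WT. The log2 fold change was 0.85 in APP/PS1 (SE of 0.25, edgeR adjusted p = 0.0836) and -0.71 in WT (edgeR adjusted p = 0.0808). The difference was 1.55 (95% interval 0.82 to 2.29, edgeR adjusted p = 0.0831).

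The related miR-376b-3p differs from miR-376a-3p by 3 of 21 bases, and one of these lies in the seed (from miR-376b-3p to miR-376a-3p A4G, C13A and U20G). It is shown for comparison, with the seed in capitals.
miR-376b-3p: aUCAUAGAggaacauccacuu
Chosen after its values were seen, miR-376b-3p had a log2 fold change of 0.02 in APP/PS1 and 0.01 in WT. miR-376c-3p, also chosen so, had 0.28 in APP/PS1 and -0.18 in WT. The 5p arm miR-376a-5p, chosen in the same way, had -0.19 in APP/PS1 and -0.26 in WT, and none of these 6 values passed the test. Of the other 5p arms, miR-376b-5p had 0.16 in APP/PS1, which did not pass. In WT miR-376b-5p had 0.56, which did pass (edgeR adjusted p = 0.00101). miR-376c-5p had 0.54 in APP/PS1 and 0.69 in WT, and neither value passed.

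For the Dlk1-Dio3 calls the fold changes in WT had the same sign and were numerically larger. The log2 fold change of miR-412-5p was -1.36 in APP/PS1 and -1.78 in WT, a difference of 0.43 (95% interval -0.11 to 0.97). That of miR-1197-3p was -1.65 in APP/PS1 and -2.43 in WT, a difference of 0.78 (95% interval -0.06 to 1.63). miR-433-5p had -0.57 in APP/PS1 and -0.91 in WT, and miR-409-5p had -0.43 in APP/PS1 and -0.56 in WT. The adjusted p of each of these 4 differences was 0.998 (edgeR), and their intervals included 0.

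**Figure D4:**
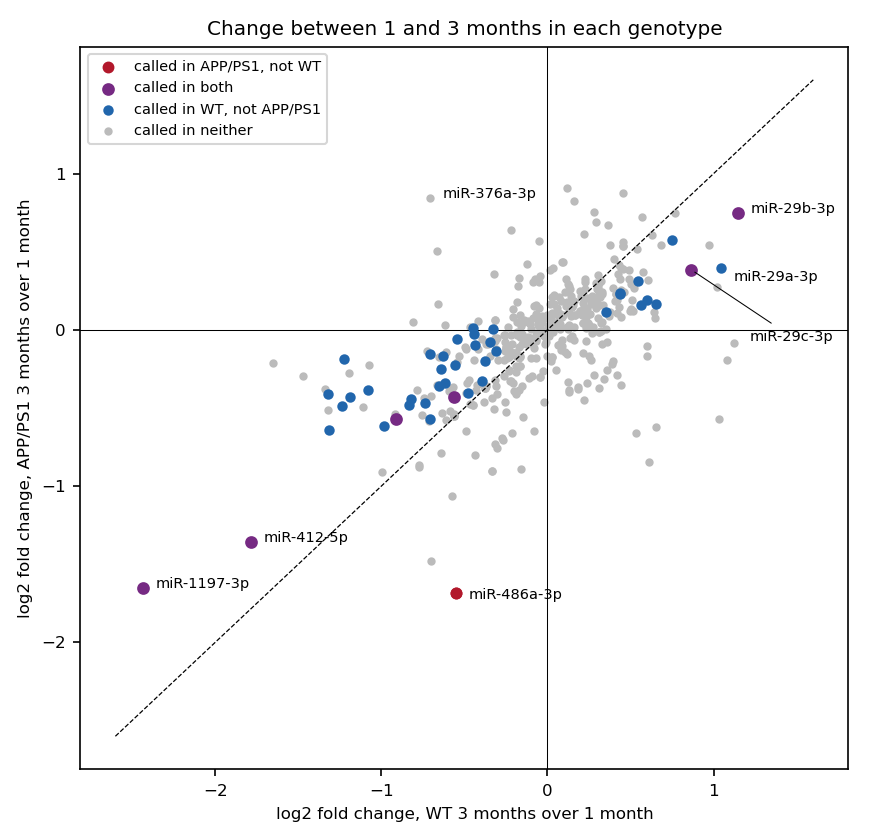
Log2 fold change of 3 months over 1 month in APP/PS1 (y axis) against that in WT (x axis) for 432 tested miRNAs; colours give the genotype in which the adjusted p was under 0.05 and the dashed line marks equal values. The 1 miRNA off the axis is miR-6481, which had the lowest log2 fold change of all in APP/PS1 and did not pass the test there. miR-376a-3p lies alone at 0.85 in APP/PS1 and -0.71 in WT.

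The levels at later ages were described without a test. In APP/PS1 miR-29b-3p averaged 1237 ± 31.7 CPM at 1 month, 2079 ± 151 at 3 months, 2432 ± 193 at 6 months and 2690 ± 86.1 at 9 months (SD, n = 3 each). In WT it averaged 820 ± 81.3, 1817 ± 96.5, 2126 ± 290 and 2181 ± 134 CPM at the same ages. The step between 1 and 3 months was the largest in both genotypes.

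miR-412-5p in APP/PS1 averaged 198 ± 17.4 CPM at 1 month, 77.5 ± 1.63 at 3 months, 44.9 ± 18.8 at 6 months and 46.3 ± 2.72 at 9 months. In WT it averaged 252 ± 49.5, 73.2 ± 2.59, 36.5 ± 2.72 and 41.9 ± 2.66 CPM. miR-1197-3p in APP/PS1 averaged 38.1 ± 3.42 CPM at 1 month and 12.03 ± 5.08 at 3 months, then 7.34 ± 3.19 at 6 months and 10.6 ± 2.68 at 9 months. In WT miR-1197-3p averaged 50.4 ± 10.2, 9.37 ± 1.26, 8.25 ± 2.01 and 10.6 ± 2.28 CPM. For both miRNAs and in both genotypes most of the range over the 4 ages lay between 1 and 3 months.

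miR-376a-3p had its lowest and highest mean at 1 and 3 months too, but in opposite order in the genotypes. In APP/PS1 it averaged 20.2 ± 4.07 CPM at 1 month, 36.3 ± 6.07 at 3 months, 30.7 ± 13.2 at 6 months and 30.1 ± 4.77 at 9 months. In WT it averaged 29.7 ± 3.95, 18.3 ± 0.836, 28.1 ± 7.94 and 20.9 ± 3.19 CPM. At 6 months the libraries of the genotypes overlapped, with 19.0 to 45.1 CPM in APP/PS1 and 20.4 to 36.3 CPM in WT.

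**Figure D5:**
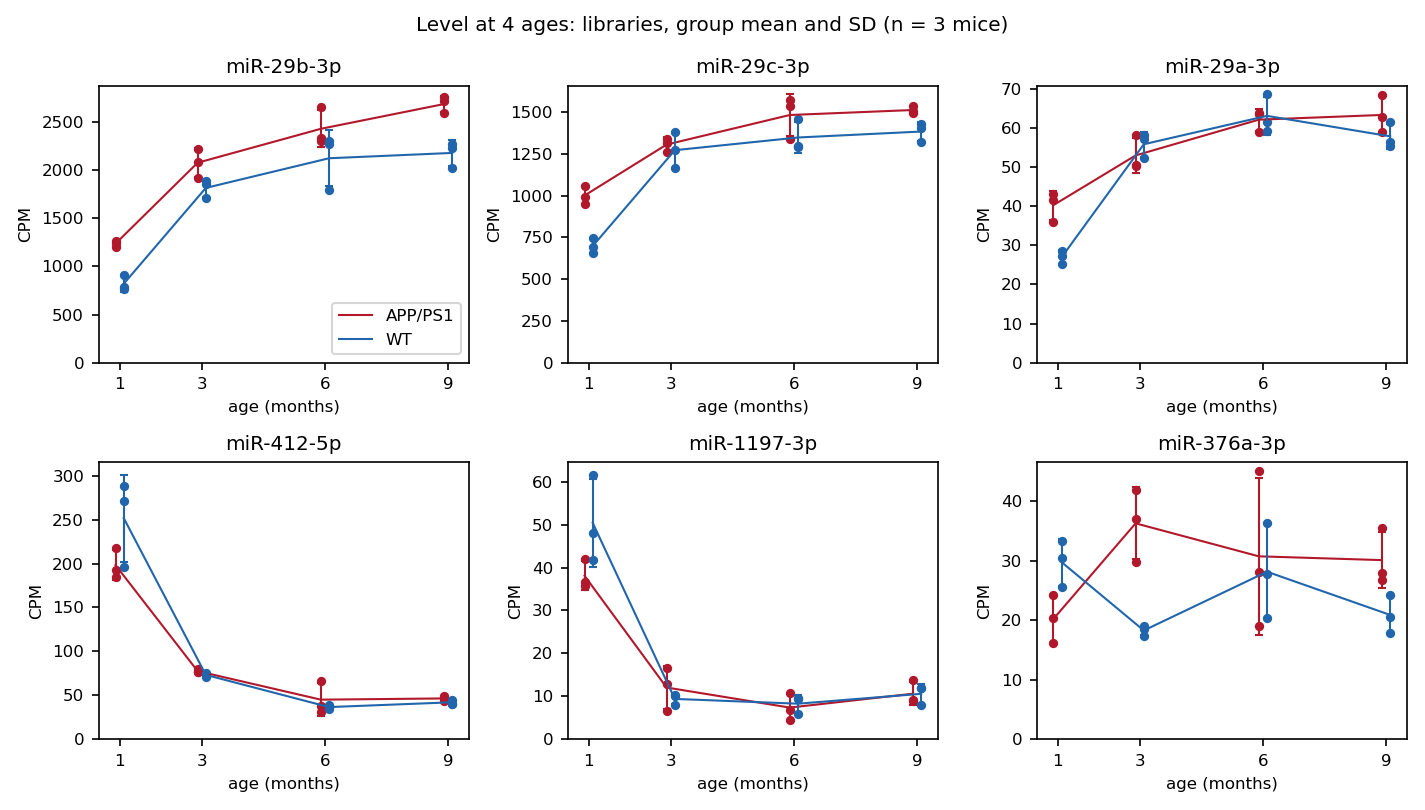
Level in CPM (y axis, from 0) of 6 miRNAs at 1, 3, 6 and 9 months (x axis) in APP/PS1 (red) and WT (blue); points are mice, lines join group means and bars are SD (n = 3). The miR-29 members are lowest at 1 month, miR-412-5p and miR-1197-3p highest at 1 month, and the 2 lines of miR-376a-3p cross between 1 and 3 months.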

How the data were processed

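Flash-frozen brains gave RNA by Trizol, per the labels' protocols, and libraries made with a TruSeq small RNA kit were sequenced from one end. Per the labels and the submitters' processing notes, the authors removed adapters with cutadapt 1.14, keeping 17 to 35 bases, removed reads of quality under 20 with Trimmomatic 0.36 and other RNA families with BLAST 2.6.0, and used miRBase 21.0 and miRDeep2 2.0.0.8. Not given in the sources used here are the counting tool, the genome build and how reads matching several names were treated. The authors deposited raw counts per mature miRNA name, and library depth limits precision for rare names.

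Counts were tested in R 4.3.3 with edgeR 4.0.16 (quasi-likelihood, TMM scaling, 8 group means over 24 libraries, 16 residual degrees of freedom). Its filter by expression (minimum count 10, minimum total 15) left 433 names, 9 of them predicted, and the rest held 0.0111% to 0.0151% of the counts of the 6 libraries. Within a comparison the Benjamini-Hochberg adjustment ran over all 433 names, with a threshold of 0.05. Among the 433, 15 sets of names (32 names) had identical counts, and 0 libraries were identical. SE was derived from each log2 fold change and its F statistic, and intervals cover 95% without adjustment for the number of tests. The code was checked on simulated counts. Annotation and sequences came from GRCm38.

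Named were the passing miRNAs with libraries that do not overlap, their other arms, the 5 with the most counts and, for the genotype difference, the 3 with the smallest p. Members of lists that did not pass were named after their values were seen. The lists and the comparison were chosen with earlier results of these data known. Alternatives were 3 scalings, 2 filters, DESeq2 1.42.0, smaller sets of libraries, identical names collapsed, a replicate block and each library left out.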

Additional observations from a re-analysis of the deposited data

How the results depend on the processing

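The 8 calls between 3 and 1 month in APP/PS1 were 9 with relative log expression scaling, 3 with upper-quartile scaling (1 higher, 2 lower), 14 with library totals alone (1 higher, 13 lower), 10 with no filter on low counts (4 higher, 6 lower, 3 shared with the 8), 7 with a stricter filter (3 higher, 4 lower), 8 with DESeq2 (4 higher, 4 lower, 6 shared), 8 from the 12 libraries of both ages (3 higher, 5 lower), 6 from the 6 libraries alone and 10 with identical names collapsed. Leaving out 1 library gave 4 to 8. miR-29b-3p, miR-412-5p and miR-1197-3p passed in all 6 of these and in all 10 other alternatives. miR-409-5p passed in 5 of 6 and 8 of 10, miR-29c-3p and miR-433-5p in 3 of 6 and 6 of 10 each, and miR-486a-3p in 3 of 6 and 5 of the 9 that tested it. Of those that did not pass, miR-29a-3p did in 4 of 10, miR-376a-3p in 3 of 10 and miR-412-3p without the second 3-month library.

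The genotype difference had 0 calls, but 2 with no filter, 3 with a stricter filter, 3 with DESeq2 and 1 from the 12 libraries. Leaving out 1 library gave 0 to 2, the 2 without the third APP/PS1 1-month library. miR-376a-3p was among the calls in all 5 of these. The WT count of 42 ran from 40 to 61, and from 28 to 42 with 1 library left out.

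Values near 0 changed sign. With library totals alone the log2 fold change was -0.11 for miR-409-3p, -0.024 for miR-99a-5p, -0.082 for miR-9-5p and -0.062 for miR-125b-5p. miR-409-3p had -0.0028 with no filter and -0.0037 with identical names collapsed. With 1 library left out, miR-409-3p ran from -0.16 to 0.10, miR-9-5p from -0.086 to 0.078, miR-125b-5p from -0.060 to 0.086 and miR-99a-5p from -0.0043 to 0.14. The causes were not tested.

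With the replicate number as a block 8 miRNAs passed in APP/PS1, all 8 shared, 41 in WT and 0 for the difference. The labels do not say that the numbers pair mice, and same-numbered APP/PS1 libraries correlated at 0.42, 0.16 and -0.04. With 3 mice per age and few counts for rare names, small changes could have been missed.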

Other observations

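Of the other miRNAs, 3 lay close to the threshold, chosen after their values were seen, and all were lower at 3 months in APP/PS1 with no overlap between ages. miR-3070-5p of the Dlk1-Dio3 region had 1.502, 1.05 and 1.41 CPM at 3 months, against 4.03, 4.10 and 2.97 CPM at 1 month, a log2 fold change of -1.48 (SE of 0.40, edgeR adjusted p = 0.0589). miR-18a-5p of the miR-17-92 cluster had 1.31, 2.84 and 2.01 CPM at 3 months, against 4.92, 3.62 and 4.54 CPM at 1 month, a log2 fold change of -1.06 (SE of 0.30, edgeR adjusted p = 0.0638). miR-1839-5p had 11.3, 6.59 and 8.86 CPM at 3 months, against 13.9, 14.97 and 14.7 CPM at 1 month, a log2 fold change of -0.71 (SE of 0.19, edgeR adjusted p = 0.0589).

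Some Dlk1-Dio3 miRNAs with a call in WT had smaller values in APP/PS1, and these too were chosen after their values were seen. miR-323-3p had 357, 480 and 400 CPM in APP/PS1 at 3 months, against 521, 540 and 605 CPM at 1 month, a log2 fold change of -0.43 (edgeR adjusted p = 0.228). In WT it had 351, 326 and 433 CPM at 3 months, against 799, 871 and 854 CPM at 1 month, a log2 fold change of -1.19 (edgeR adjusted p = 5.06e-05). The difference between genotypes for miR-323-3p was 0.76 (edgeR adjusted p = 0.330) and did not pass.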
